A study of Mus musculus with 16 samples.

Results

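Scd2, the gene of a stearoyl-CoA desaturase, was read together with the other genes of long-chain fatty acid synthesis in the ileum of mice that lack Bcl6 in hepatocytes. The set held 10 of the 24940 genes in the count table: the desaturases Scd1, Scd2, Fads1 and Fads2, the microRNA gene Mir5114 that lies inside Scd2, the elongases Elovl5 and Elovl6, the synthesis enzymes Fasn and Acaca, and the regulator Srebf1. They were chosen by symbol, but with earlier results of these data in view, in which Mir5114 and Scd2 stood out in females. The female values of the 10 genes are therefore a description, given without p-values.

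Poly(A) RNA of the terminal ileum was sequenced from 16 C57BL/6 mice, 4 in each of 4 groups. Both control groups, male WT and female WT, were Bcl6fl/fl mice, in which Bcl6, the gene of a transcriptional repressor, is flanked by loxP sites. The male LKO and female LKO groups were Bcl6LKO mice, which carry the same floxed gene and Cre driven by the Albumin promoter. That promoter is active in hepatocytes, so the ileum keeps its Bcl6 gene in every group. Bcl6 was read at 9.24 to 26.1 CPM (counts per mega gene counts, scaled by trimmed mean of M-values) over the 16 libraries. By group it was 14.0 to 17.9 CPM in male WT, 17.2 to 21.9 in male LKO, 9.24 to 15.1 in female WT and 15.2 to 26.1 in female LKO. The labels name no treatment. The age of the mice, and whether these animals were fed or briefly fasted before the ileum was taken, are not given in the sources used here.

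Female LKO replicate 1 was the deepest library with 60.3 M gene counts (M, mega), and the other 15 held 15.7 to 20.5 M, so 3 counts, the limit that a count of 0 allows, equal 0.0497 to 0.191 CPM by counting error only. The ileal markers Fabp6 and Slc10a2 were present in all libraries, at 2692 to 5425 CPM and 426 to 816 CPM. The sum of 10 B-cell markers stood apart in 4 libraries, male WT replicate 2 (138 CPM), female WT replicate 3 (80.6 CPM), female LKO replicate 2 (238 CPM) and female LKO replicate 3 (453 CPM), and lay between 19.3 and 33.0 CPM in the other 12. In males the sum of 10 Paneth and goblet cell markers was 26835 to 29947 CPM in WT and 29517 to 32830 CPM in LKO. Of the 10, 3 were higher in LKO by the adjusted test, which 0.0527% of the 15169 genes tested passed. The list as a whole had no common direction, with 5 markers higher and 5 lower in LKO and a median log2 fold change of 0.026.

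Fatty acid synthesis starts from acetyl-CoA. ACACA carboxylates it to malonyl-CoA, and FASN builds palmitate from these units. ELOVL6 lengthens palmitate to stearate, and the stearoyl-CoA desaturases SCD1 and SCD2 place a double bond in the chain to give oleate and palmitoleate. FADS1, FADS2 and ELOVL5 act on a different branch, in which dietary linoleic and alpha-linolenic acid are turned into arachidonic and docosahexaenoic acid. SREBP1, encoded by Srebf1, activates genes of both branches, and its relative SREBP2 drives the genes of cholesterol synthesis. SCD1 is the main form of liver and adipose tissue in adult mice.

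Scd1 and Scd2 lie in 1 cluster on chromosome 19 of mm10. Scd2 spans chr19:44293676-44306862 on the plus strand and Scd1 spans chr19:44394450-44407709 on the minus strand. Fads2 (chr19:10064164-10101503, minus strand) and Fads1 (chr19:10182888-10196872, plus strand) are neighbours elsewhere on the same chromosome. Fasn (chr11:120805958-120824547), Acaca (chr11:84195438-84401651) and Srebf1 (chr11:60199084-60220627) lie on chromosome 11, Elovl5 at chr9:77917365-77984519 and Elovl6 at chr3:129532386-129638493. The counts cover the exons of these intervals. The remaining genes of the Scd cluster were barely read, Scd3 with 0 to 7 counts and Scd4 with 8 to 53 counts in a library. Mir5114 lies at chr19:44303171-44303231 on the plus strand, within exon 6 of 6 of Scd2. Its annotated hairpin of 61 bases covers the last 27 coding bases of Scd2 and the 34 bases that follow, and the mature miR-5114 lies wholly in the coding part. The libraries were made from poly(A) RNA, so a count for Mir5114 is a read of Scd2 mRNA over this stretch and gives no level of the microRNA. The mature microRNA, from RefSeq (GRCm38.p6), is shown with its seed, bases 2 to 8, in capitals. The last 60 coding bases of Scd2 (GENCODE transcript on GRCm38, the assembly of mm10; chr19:44303138-44303197, plus strand) follow, with the mature microRNA in capitals. The last line holds the last 60 coding bases of Scd1 (chr19:44397922-44397981, minus strand), with the bases that differ from Scd2 in capitals. They are shown because they tell how far reads of the 2 desaturases can be told apart at the site of Mir5114.
miR-5114: aCUGGAGAcggaagcugcaaga
Scd2: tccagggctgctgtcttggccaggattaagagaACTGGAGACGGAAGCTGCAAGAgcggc
Scd1: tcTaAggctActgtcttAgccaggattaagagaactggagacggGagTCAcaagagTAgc
Over these 60 bases Scd1 and Scd2 differ at 10 positions, of which 4 fall within the mature microRNA. The whole coding sequences were 89.9% identical. Of the 5356 windows of 100 bases in the Scd2 transcript, 0.896% also occur without a mismatch in Scd1, Scd3 or Scd4, and 7.62% do with up to 4 mismatches, the most that the authors' alignment allowed. For Scd1 these shares were 2.64% and 9.82% of 4733 windows. No window was shared between Fads1, Fads2 and Fads3. Reads with several positions were dropped by the authors, so the Scd genes can lose part of their reads over the shared stretches, and their counts carry that uncertainty.

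With Mir5114 left out of the order, because its counts are reads of Scd2, Scd2 was the most strongly expressed member per length in 3 of the 4 groups. Its level was 147 ± 34.6 CPM per kilobase in male WT (SD, n = 4), 90.5 ± 18.7 in male LKO, 123 ± 32.2 in female WT and 53.6 ± 1.92 in female LKO. In female LKO the order was different, with Scd1 first at 170 ± 103 CPM per kilobase, then Fads2 at 71.4 ± 7.93, then Scd2. Fads2, which makes the first double bond on the polyunsaturated branch, was second in every group, with 71.4 to 88.5 CPM per kilobase as group means over an annotated length of 1494 bases. The GENCODE transcript of Fads2 is longer, with 3051 windows of 100 bases. A longer length would lower these levels, so the place of Fads2 in the order depends on the length used. The ranges of Scd2 and Fads2 were separate in male WT and in female LKO and overlapped in male LKO and female WT. Elovl6, Elovl5, Fasn and Srebf1 lay close together, with group means from 18.7 to 35.2 CPM per kilobase, and neighbours in this order overlapped in all 4 groups. Fads1 followed with group means of 13.5 to 17.9 CPM per kilobase. Acaca was lowest in every group, at 3.66 to 4.90 CPM per kilobase, and its range was separate from that of Fads1.

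**Figure D1:**
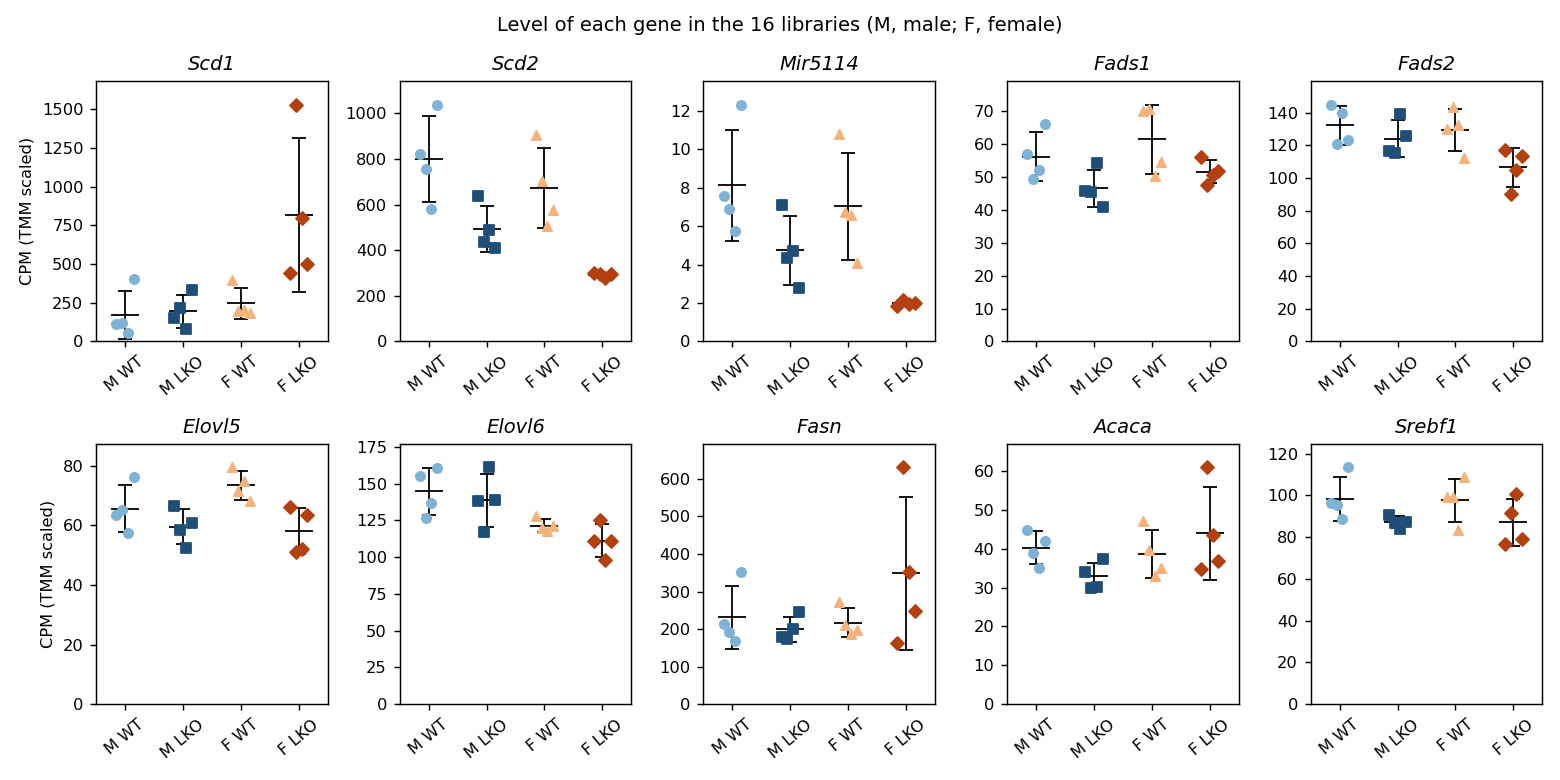
CPM of each of the 10 genes (vertical axes, from 0) in the 4 groups, with 1 point per library and the mean and SD of 4 libraries as the bar. The 4 female LKO libraries lie close together for Scd2, at 276 to 299.8 CPM, and far apart for Scd1, at 445 to 1531 CPM.

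The first comparison asks whether the ileum of male Bcl6LKO mice differs from that of male Bcl6fl/fl mice. In males Scd2 was 821, 754, 583 and 1038 CPM in the WT libraries (replicates 1 to 4) and 636, 436, 490.0 and 409 CPM in the LKO libraries. The LKO libraries were the lower ones, but the groups overlapped, since LKO replicate 1 lay above WT replicate 3. The log2 fold change was -0.69 ± 0.20 (SE), a level 1.62-fold lower in LKO, with an unadjusted p of 0.00981 and an adjusted p of 0.658 by edgeR's quasi-likelihood test, which does not pass 0.05. Mir5114, read from the same transcript, was 7.57, 6.89, 5.73 and 12.3 CPM in WT and 7.12, 4.36, 4.73 and 2.79 CPM in LKO, with a log2 fold change of -0.77 ± 0.30 and an adjusted p of 0.879. In bulk tissue, fewer cells of a type and less RNA per cell cannot be told apart.

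Scd1 had no steady direction in males. It was 116, 119, 53.1 and 402 CPM in WT and 152, 215, 81.9 and 332 CPM in LKO, a spread of more than 4-fold within each group. The log2 fold change was 0.19 ± 0.73 (adjusted p = 1.00, edgeR), and leaving out a single library moved it between -0.20 (without male LKO replicate 4) and 1.03 (without male WT replicate 4).

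Of the genes that feed the desaturases, Acaca had the smallest p of all members in males. It was 44.9, 39.0, 35.1 and 42.0 CPM in WT and 34.0, 29.8, 30.2 and 37.4 CPM in LKO, with a log2 fold change of -0.29 ± 0.094, an unadjusted p of 0.00817 and an adjusted p of 0.645 by edgeR. The ranges met at a single pair of libraries, LKO replicate 4 and WT replicate 3. Fasn differed by -0.21 ± 0.25, and without male WT replicate 4, its highest library at 353 CPM, the value was 0.065. Srebf1 was 88.7 to 113 CPM in WT and 84.0 to 90.6 CPM in LKO, a log2 fold change of -0.17 ± 0.073 with an adjusted p of 0.901.

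On the polyunsaturated branch, Fads1 was 57.0, 49.5, 52.3 and 66.3 CPM in WT and 45.7, 45.6, 54.2 and 40.8 CPM in LKO, with a log2 fold change of -0.27 ± 0.10, an unadjusted p of 0.0189 and an adjusted p of 0.832 by edgeR. Fads2 differed by -0.086 ± 0.081, Elovl5 by -0.13 ± 0.089 and Elovl6, the elongase of palmitate, by -0.056 ± 0.10. The Fads1 to Fads2 log2 ratio of counts per kilobase averaged -2.44 ± 0.23 in male WT and -2.62 ± 0.14 in male LKO (SD), a difference of -0.18 with an exact two-sided permutation p of 0.314.

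In males none of the 10 members passed the adjusted threshold, where 0.0527% of the 15169 genes tested did. With DESeq2 the count was also 0, against 0.336% of all genes. At an unadjusted p under 0.05 the count was 5 of 10 (Scd2, Mir5114, Fads1, Acaca and Srebf1, with Scd2 and Mir5114 from the same transcript), against 5.29% of all genes. No member had groups without overlap, against 2.97% of all genes. The fold change was below 0 for 9 of 10 members, with a median of -0.19, while the median over all genes was -0.0020. The members were chosen with earlier results of these data known, so the male counts are only stated.

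**Figure D2:**
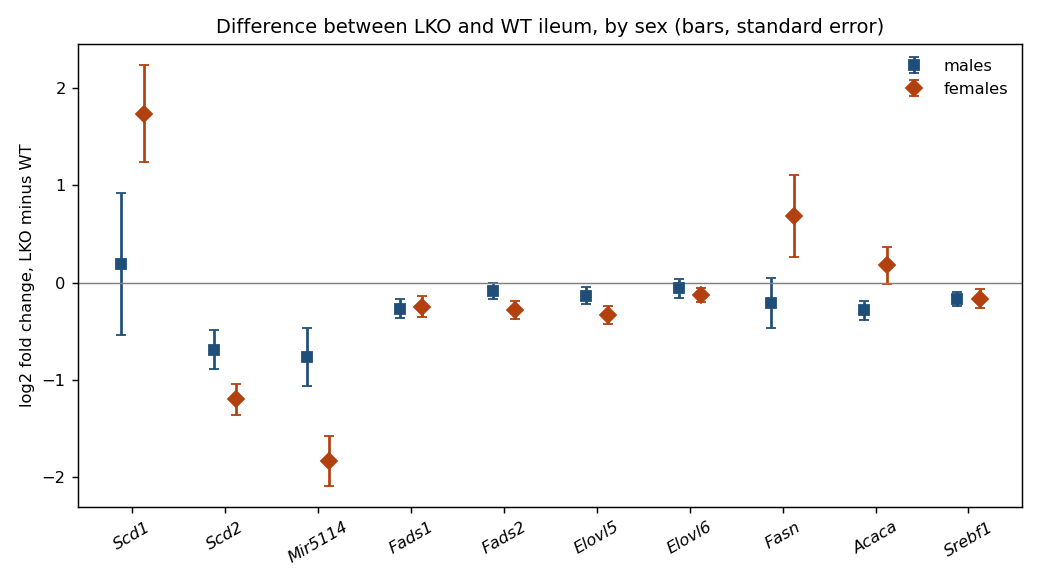
Log2 fold change between LKO and WT (vertical axis) of the 10 genes in males (squares) and females (diamonds), with the standard error as bars. Scd2 and Mir5114 lie below 0 in both sexes, and Scd1 and Fasn have the widest bars.

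In females Scd2 was 904, 703, 505 and 575 CPM in WT and 299.8, 296, 276 and 294 CPM in LKO. Every LKO library lay below every WT library, and the 4 LKO values differed by little, with a coefficient of variation of 3.57% against 26.1% in female WT. The log2 fold change was -1.20 ± 0.16, a level 2.30-fold lower in LKO. Mir5114 was 10.8, 6.72, 6.58 and 4.06 CPM in WT and 1.83, 2.14, 1.97 and 2.02 CPM in LKO, a log2 fold change of -1.83 ± 0.26. Its LKO values rest on 35 to 113 counts a library.

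Reads over Mir5114 were thinner than over the whole of Scd2 in female LKO. The counts per kilobase of Mir5114 were 0.553, 0.655, 0.645 and 0.622 times those of Scd2 in the female LKO libraries. In female WT the ratio was 1.08, 0.866, 1.18 and 0.641. It was 0.837, 0.828, 0.893 and 1.08 in male WT and 1.02, 0.909, 0.876 and 0.620 in male LKO. The low values of male LKO replicate 4 and female WT replicate 4 thus lay within the range of female LKO.

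Scd1 went the other way in females. It was 399, 197, 202 and 184 CPM in WT and 445, 1531, 801 and 503 CPM in LKO, without overlap, and the log2 fold change was 1.74 ± 0.50, a level 3.34-fold higher in LKO. Fasn was 272, 212, 186 and 197 CPM in WT and 163, 631, 351 and 248 CPM in LKO, a log2 fold change of 0.68 ± 0.42, and its LKO libraries lay on both sides of the WT range. Acaca was 47.1, 39.6, 33.0 and 35.0 CPM in WT and 34.7, 60.9, 43.5 and 36.7 CPM in LKO, a log2 fold change of 0.18 ± 0.19. LKO replicate 2 was the highest of the 16 libraries for Scd1, Fasn and Acaca, and LKO replicate 3 came next for Scd1. These are the libraries with the most B-cell marker RNA. They also had the highest sums of adipocyte markers among the female libraries, at 793 CPM (replicate 2) and 652 CPM (replicate 3). Without female LKO replicate 2 the log2 fold change was 0.23 for Fasn and -0.017 for Acaca. An alternative added after seeing the data left out the 4 libraries high in B-cell markers, in females WT replicate 3 and LKO replicates 2 and 3. The female log2 fold change was then 0.86 ± 0.45 for Scd1, -0.15 ± 0.24 for Fasn, -0.19 ± 0.12 for Acaca, -0.39 ± 0.078 for Srebf1 and -1.29 ± 0.19 for Scd2. B-cell and adipocyte markers were both highest in female LKO replicates 2 and 3, so leaving these out cannot tell the 2 kinds of marker apart. Female LKO replicate 1 had 604 CPM of adipocyte markers but 33.0 CPM of B-cell markers. The part of B-cell content in these differences was not tested.

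On the polyunsaturated branch, Elovl5 was 79.4, 71.5, 74.8 and 68.1 CPM in WT and 66.2, 51.1, 52.1 and 63.4 CPM in LKO, without overlap, a log2 fold change of -0.33 ± 0.090. Fads2 differed by -0.28 ± 0.092 and Fads1 by -0.25 ± 0.11, both with overlapping groups. Elovl6 differed by -0.13 ± 0.073 and Srebf1 by -0.17 ± 0.10. Of the 10 members, 1 (Mir5114) passed the adjusted threshold in females, where 0.0392% of the 15298 genes tested did, and 4 (Scd1, Scd2, Mir5114 and Elovl5) had groups without overlap, against 6.31% of all genes. Earlier results of this contrast were used in the choice, so these counts are only stated. The call of Mir5114 was lost without female WT replicate 2 or without any of the female LKO libraries.

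The balance of the stearoyl-CoA desaturases differed most in female LKO. Scd2 made up 66.8% to 76.0% of the counts per kilobase of Scd1 and Scd2 together in female WT and 37.4%, 14.7%, 23.5% and 34.2% in female LKO, so Scd1 was the larger part in every female LKO library and in no other library. In males the share was 86.3%, 84.9%, 90.7% and 69.6% in WT and 78.8%, 64.2%, 84.2% and 52.2% in LKO. The male difference was -13.0 percentage points, with an exact two-sided permutation p of 0.171 (70 relabellings, smallest possible p 0.0286). The groups overlapped.

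**Figure D3:**
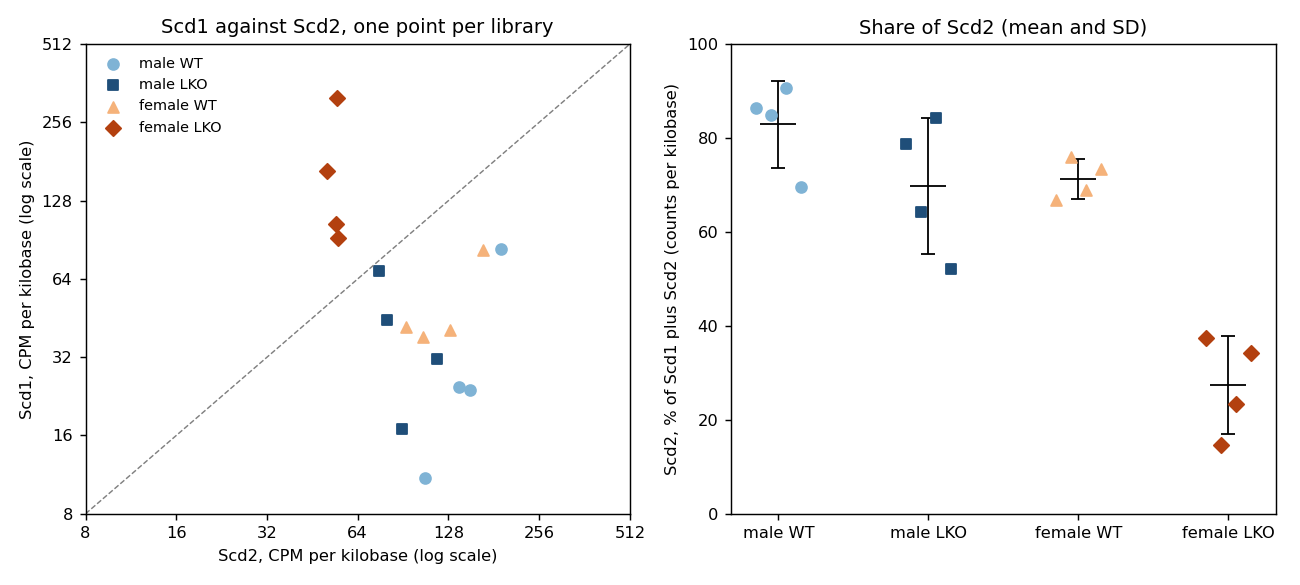
Left, CPM per kilobase of Scd1 against Scd2 on log axes with 1 point per library, where the dashed line marks equal levels. Right, the percent of Scd2 in the sum of both, with the mean and SD of 4 libraries per group. Only the 4 female LKO libraries lie above the line.

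Adipocyte markers moved with Scd1, Fasn and Acaca over the libraries as a whole, but not in every library. Female LKO replicate 1, at 604 CPM of markers, had the lowest Fasn of the 16 libraries (163 CPM). Its Acaca, at 34.7 CPM, lay within the female WT range, and its Scd1, at 445 CPM, lay above every female WT library. The sum of 10 adipocyte markers was 441, 365, 430.2 and 711 CPM in male WT, 406, 394, 348 and 453 CPM in male LKO, 549, 366, 392 and 492 CPM in female WT, and 604, 793, 652 and 455 CPM in female LKO. All 10 had a higher mean CPM in LKO than in WT in females, and all 10 had a lower mean CPM in LKO in males. By the fitted log2 fold change 9 were lower in males, with Pnpla2 at 0.00055. None of the 10 passed the adjusted test in either sex (edgeR). Adipoq, the gene of adiponectin, differed by 0.70 ± 0.38 in females (adjusted p = 0.508, edgeR) and by -0.75 ± 0.52 in males (adjusted p = 1.00, edgeR). Over the 16 libraries the log2 levels correlated with the log2 marker sum at r = 0.79 for Scd1, 0.77 for Fasn and 0.69 for Acaca, and at 0.77, 0.69 and 0.58 with group means taken out. For Scd2 the values were -0.26 and 0.39, for Srebf1 0.31 and 0.65, and for Fads2 -0.64 and -0.51. The largest of the 10 markers in the sum was Pnpla2, at 152 to 202 CPM, while Adipoq was 5.43 to 37.6 CPM. These are descriptions over libraries that share their groups. Without the library of each group with the highest marker sum (added after seeing the data), the female log2 fold change was 1.58 ± 0.23 for Scd1, 0.36 ± 0.29 for Fasn and -1.03 ± 0.11 for Scd2, and the male value of Scd2 was -0.47 ± 0.17. The part of fat tissue in these differences was not tested.

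**Figure D4:**
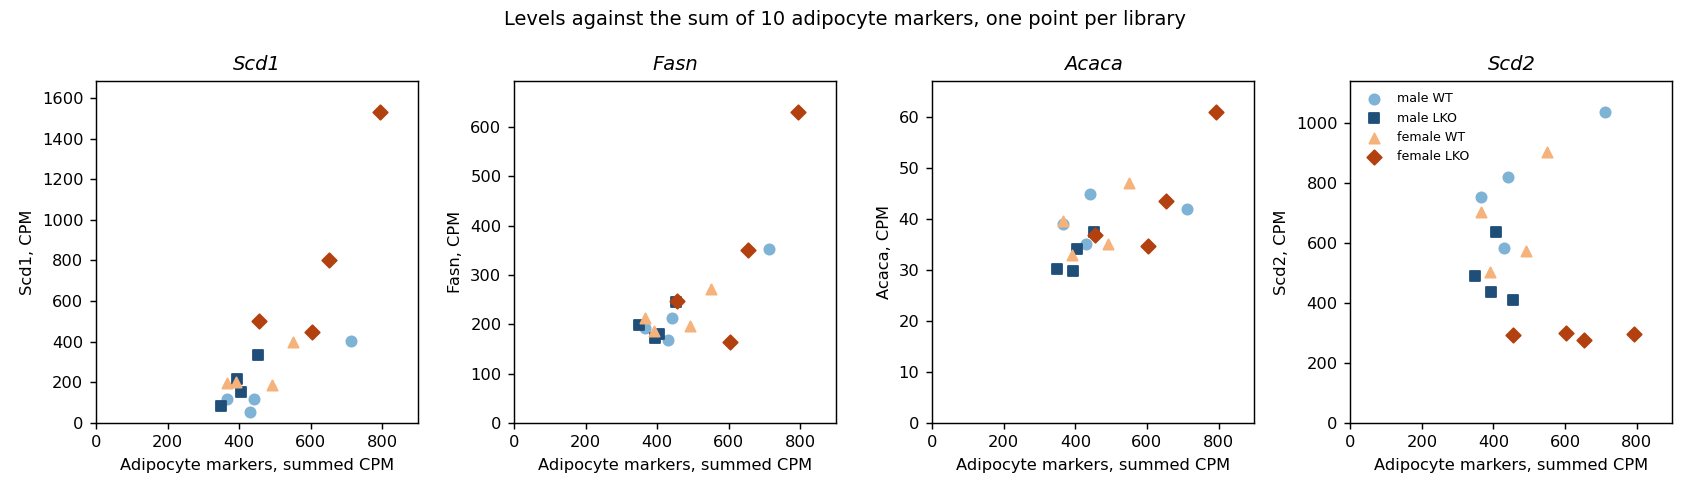
CPM of Scd1, Fasn, Acaca and Scd2 (vertical axes) against the summed CPM of 10 adipocyte markers (horizontal axes), with 1 point per library and a symbol per group. Female LKO replicate 2, at 793 CPM of markers, is the highest library for Scd1, Fasn and Acaca, while Scd2 stays low across the female LKO libraries.

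Fitted over both sexes with sex as a covariate, Scd2 had a log2 fold change of -0.95 ± 0.15 and Mir5114 of -1.27 ± 0.25. These were the 2 of 10 members that passed the adjusted threshold, where 0.269% of the 15598 genes tested did, and since the fit contains the female libraries they add nothing to the choice. At an unadjusted p under 0.05 the count was 6 of 10, against 11.2% of all genes. It includes Scd2 and Mir5114, which come from 1 transcript and stood out in the female libraries of this fit, so it is only stated. Elovl5 (-0.24 ± 0.070, adjusted p = 0.167), Fads1 (-0.26 ± 0.079, adjusted p = 0.178), Fads2 (-0.19 ± 0.066, adjusted p = 0.260) and Srebf1 (-0.17 ± 0.063, adjusted p = 0.284) did not pass the adjusted test by edgeR. Scd1 was 0.96 ± 0.50 and Fasn 0.23 ± 0.28, the latter becoming -0.0074 without female LKO replicate 2. Elovl6 and Acaca differed by less than 0.1 on the log2 scale.

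Whether the genotype difference depended on sex was tested as an interaction, given as the male minus the female effect. None of the 10 members passed the adjusted threshold, nor did any other gene (0% of 15598). At an unadjusted p under 0.05 the count was 1 of 10, against 5.64% of all genes. That member was Mir5114, which stood out in the female libraries of this fit, so the count is only stated. DESeq2 also called none of the 10 (0% of all genes). For Scd1 the interaction was -1.56 ± 0.89 (adjusted p = 0.845), for Fasn -0.90 ± 0.50 (adjusted p = 0.845) and for Acaca -0.47 ± 0.22 (adjusted p = 0.845) by edgeR. For Scd2 it was 0.51 ± 0.28 and for Mir5114 1.06 ± 0.43. Fads2 and Elovl5 each had 0.19, with SE 0.13 and 0.14, and Fads1, Elovl6 and Srebf1 were below 0.1 in size. Without male WT replicate 4 the interaction was -0.71 for Scd1, and without female LKO replicate 2 it was -0.44 for Fasn and -0.28 for Acaca. For Scd2 it was 0.33 without female WT replicate 1. At this number of mice, a difference between the sexes in the response was therefore not detected for any member.

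Males and females were also compared within a genotype. In WT mice none of the 10 members passed the adjusted threshold, where 0.25% of the 15229 genes tested did, and none had groups without overlap, against 8.38% of all genes. At an unadjusted p under 0.05 the count was 1 of 10, against 13.9% of all genes. That member was Elovl6, which was 127 to 161 CPM in male WT and 117 to 128 CPM in female WT, 0.25 ± 0.077 higher in males on the log2 scale (adjusted p = 0.200, edgeR). Scd1 differed by -0.52 ± 0.66, Elovl5 by -0.17 ± 0.081 and Fads1 by -0.14 ± 0.12, all lower in males. Scd2 was 0.24 ± 0.23 and Mir5114 0.21 ± 0.32 higher in males, and Fads2, Fasn, Acaca and Srebf1 differed by less than 0.1. Without male WT replicate 4 the value of Mir5114 was -0.064.

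The sexes were compared in the same way among LKO mice, and whether the sex difference depended on genotype is the interaction already given, which no member passed. Scd1 was 81.9 to 332 CPM in male LKO and 445 to 1531 CPM in female LKO, a log2 difference of -2.07 ± 0.59 (adjusted p = 0.127, edgeR), 4.19-fold lower in males. Scd2 was 409 to 636 CPM in males and 276 to 299.8 CPM in females, 0.75 ± 0.12 higher in males on the log2 scale, and Mir5114 was 1.27 ± 0.25 higher. These 3 had groups without overlap, against 12.9% of all genes. Elovl6 was 0.32 ± 0.10 higher in males (adjusted p = 0.107, edgeR), Fads2 0.21 ± 0.088 higher (adjusted p = 0.179), Acaca -0.41 ± 0.17 (adjusted p = 0.204), Fasn -0.81 ± 0.42 (adjusted p = 0.305) and Fads1 -0.15 ± 0.086 (adjusted p = 0.303). Elovl5 and Srebf1 differed by less than 0.1. None of the 10 passed the adjusted threshold, where 0.0984% of the 15250 genes tested did, and 6 of 10 were under 0.05 unadjusted, against 22.6% of all genes. With DESeq2 4 of the 10 passed, against 6.86% of all genes. The 6 include Scd2 and Mir5114, which come from 1 transcript. The female LKO libraries are the same as in the comparison with female WT, which was used in the choice, so these counts are only stated.

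Beyond the 10 members, 55 further genes in 5 lists (other desaturases and electron donors, elongation, acetyl-CoA and NADPH supply, acyl-CoA synthetases, and regulators) were read. In males 50 were tested and none passed, against 0.0527% of all genes, with 20 higher and 30 lower in LKO. Their median log2 fold change was -0.029. In females 51 were tested and none passed, against 0.0392% of all genes, with 27 higher, 24 lower and a median of 0.018. At an unadjusted p under 0.05 there were 8 in males, against 5.29% of all genes, and 10 in females, against 11.7% of all genes. The lists were chosen with earlier results of these data known, so their counts are only stated. In the fit over both sexes 2 of 51 passed, against 0.269% of all genes, both lower in LKO. These were Mid1ip1, whose product binds acetyl-CoA carboxylase and promotes its polymerisation (-0.26 ± 0.053, adjusted p = 0.0470, edgeR), and Cyb5b, a cytochrome b5 of the outer mitochondrial membrane (-0.23 ± 0.049, adjusted p = 0.0470, edgeR). Mid1ip1 lost this call without any of 15 libraries in turn (adjusted p up to 0.0979) and Cyb5b without any of 13 (up to 0.112).

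The genes named next were each among the 3 largest differences of a comparison, over these lists and the cholesterol genes that follow, at a mean of at least 1 CPM. Thrsp, the gene of the lipogenic protein Spot 14, was 2.70 to 24.7 CPM in male WT, 4.09 to 12.8 CPM in male LKO, 6.47 to 17.9 CPM in female WT and 10.9 to 60.3 CPM in female LKO. Its log2 fold change was 1.34 ± 0.64 in females (adjusted p = 0.470, edgeR) and -0.36 ± 0.75 in males (adjusted p = 1.00), and without the 4 libraries high in B-cell markers the female value was 0.048. Without male WT replicate 4 the male value was 0.55. Acacb, the mitochondrial acetyl-CoA carboxylase, was 0.76 ± 0.14 higher in female LKO (adjusted p = 0.104, edgeR) and 0.52 ± 0.15 higher over both sexes (adjusted p = 0.170). Without male WT replicate 4 the value over both sexes passed (adjusted p = 0.0243, against 0.0243 to 0.655 over the 27 alternatives). Ppargc1b, a coactivator of SREBP1, was 0.38 ± 0.12 higher in male LKO (adjusted p = 0.625, edgeR). Me1, the cytosolic malic enzyme that supplies NADPH, was -1.29 ± 0.48 in male against female LKO (adjusted p = 0.188, edgeR) and -0.47 ± 0.26 in male against female WT (adjusted p = 0.469). Thrsp was -1.83 ± 0.66 in male against female LKO (adjusted p = 0.179, edgeR). The interaction was -1.71 ± 0.99 for Thrsp, -0.83 ± 0.57 for Me1 and -0.48 ± 0.29 for Acacb, none of which passed (adjusted p = 0.845, 0.860 and 0.845, edgeR).

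Genes of cholesterol synthesis and uptake that SREBP2 controls lay on the same side as Scd2. All 10 of them had a log2 fold change below 0 in males (median -0.14) and in females (median -0.28), while 50.8% and 48.2% of all genes tested were below 0. The list was chosen with earlier results of these data known, and its genes share a regulator. The counts of this list are therefore only stated. None of the 10 passed the adjusted test in either sex, against 0.0527% of all genes in males and 0.0392% in females. At an unadjusted p under 0.05 there were 3 in males, against 5.29% of all genes, and 9 in females, against 11.7%. Over both sexes 1 of the 10 passed, against 0.269% of all genes. This was Lss, the gene of lanosterol synthase (-0.35 ± 0.066, adjusted p = 0.0310, edgeR). Lss lost its call without any of 9 libraries in turn (adjusted p up to 0.0691).

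The same 10 genes were all higher in males than in females within each genotype, with medians of 0.28 in WT and 0.40 in LKO on the log2 scale. Of all genes tested, 51.8% in WT and 50.1% in LKO were lower in males. None of the 10 passed the adjusted test in WT, against 0.25% of all genes, and 2 did in LKO, against 0.0984%. At an unadjusted p under 0.05 there were 8 in WT, against 13.9% of all genes, and 9 in LKO, against 22.6%. As for the comparison of genotypes, the counts of this list are only stated. Among LKO mice Hmgcs1, the gene of HMG-CoA synthase, passed by edgeR (0.46 ± 0.068, adjusted p = 0.0309). It lost its call without any of 5 libraries in turn (adjusted p up to 0.122). In WT Fdps differed by 0.38 ± 0.074 (adjusted p = 0.0532) and Mvd by 0.34 ± 0.078 (adjusted p = 0.0962) by edgeR, both enzymes of isoprenoid synthesis. Fdps passed without male WT replicate 4 (adjusted p = 0.0402, against 0.00102 to 0.173 over the 19 alternatives).

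Among the 14422 other genes with a mean of at least 1 CPM, 10 were taken whose log2 CPM followed Scd2 most closely over the 16 libraries, among them Stard13 (r = 0.88), Usp24 (0.88), Ypel2 (0.87), Dhcr7 (0.87), Rdh11 (0.87), Ppip5k1 (0.86), Aacs (0.86), Phkb (0.86) and Fam46a (0.85). With group means taken out their r was 0.42 to 0.67, and none of the 10 stayed among the closest. Dhcr7 encodes the last enzyme of cholesterol synthesis and Aacs an acetoacetyl-CoA synthetase. The most opposite genes were the myeloid receptor gene Clec12a (-0.90), the kinase gene Mapkapk2 (-0.87) and the myeloid kinase gene Fgr (-0.87). Scd1 was followed by other genes, Orm1 (0.95), Thrsp (0.93), Cd300lg (0.92), Retn (0.90) and A530016L24Rik (0.90), of which Retn is an adipocyte marker. Fasn was followed by Pcx (0.94), Acly (0.89), Thrsp (0.88), Me1 (0.86) and A530016L24Rik (0.85). Pcx is pyruvate carboxylase, and Acly and Me1 supply the synthesis with acetyl-CoA and NADPH. For Srebf1 the closest genes were Cyp3a44 (0.80), Cep57l1 (0.80), Dusp3 (0.75), Kif27 (0.75) and Rpap1 (0.74). All of these are descriptions over libraries that share group, sex and tissue composition.

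Among the members themselves, Fasn and Acaca moved together (r = 0.84 over the 16 libraries and 0.85 with group means taken out), as did Scd1 and Fasn (0.78 and 0.79). Scd1 and Scd2 were opposed over all libraries (-0.52) but not within groups (0.42). Scd2 and Fads1 had 0.54 and 0.71. Scd1 and Fads2 had -0.76 and -0.54, the most negative pair both ways except that Fads2 and Srebf1 had -0.55 within groups. Srebf1 was nearly flat against Scd1 over all libraries (0.049) and had 0.59 within groups.

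**Figure D5:**
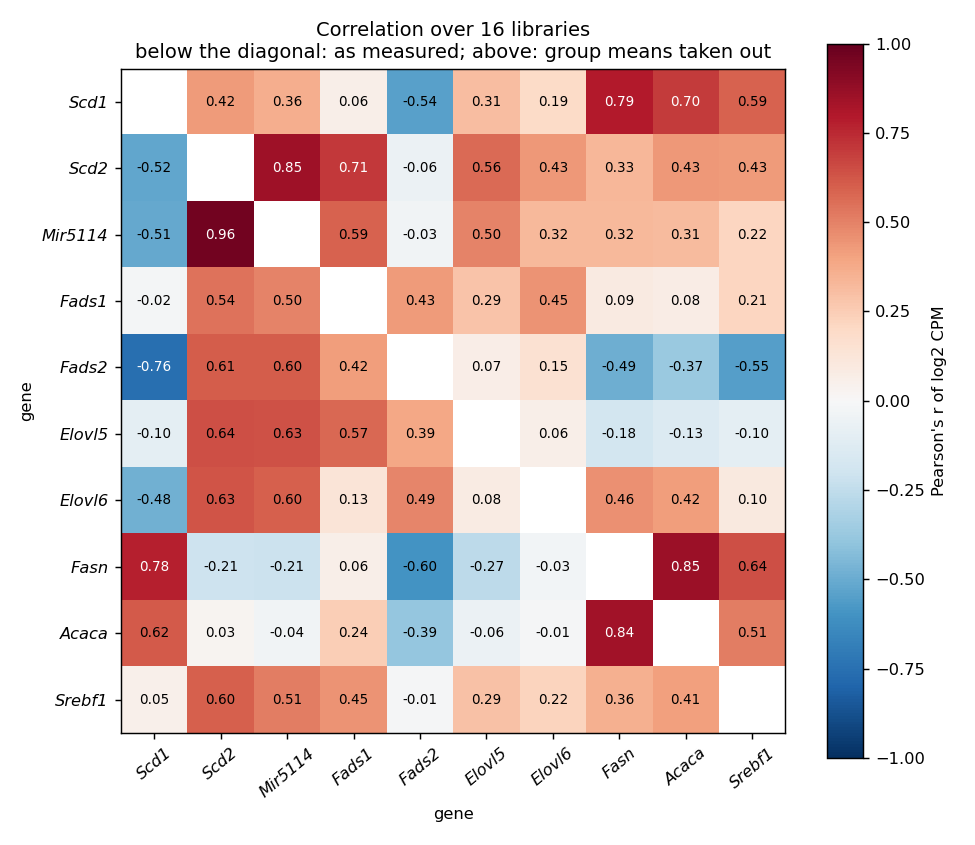
Pearson's r of log2 CPM between the 10 genes (both axes) over the 16 libraries, as measured below the diagonal and with group means taken out above it. Fasn, Acaca and Scd1 form a block on both sides, and the sign for Scd1 and Scd2 differs between the sides.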

How the data were processed

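Stranded poly(A) libraries of terminal ileum from 16 mice (groups from the sample titles) were sequenced by the authors as single-end reads of 100 bases. The authors aligned them to mm10 with STAR 2.5.2, kept reads with 1 position and at most 4 mismatches, and counted them over exons with HOMER 4.10. The deposited values are raw counts per gene. The authors tested them with DESeq2. The strand setting and annotation version of the counting are not given in the sources used here. The table names each gene once, and every per-sample column was used. The gene counts were 81.6% to 83.4% of the tags stated for a library, and each of the 24 replicate pairs differed beyond sampling noise.

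Counts were fitted in edgeR 4.0.16 under R 4.3.3 and tested by its quasi-likelihood F statistic (robust fits, the default method of that version, trimmed mean of M-values, filterByExpr by group), with Benjamini-Hochberg adjustment over all genes tested and a threshold of 0.05. The fitting was tested on simulated data. Comparisons of 2 groups used their 8 libraries, and the interaction and the fit with sex as a covariate used all 16. An SE was obtained as the absolute log2 fold change over the root of its F. CPM are counts per mega gene counts, and CPM per kilobase divide by the table's gene length. Within-library ratios were tested in males by exact permutation. Correlations used log2 CPM with a prior count of 2. The members and lists were chosen with earlier results of these data known. All 10 members were named in every comparison, those below 0.1 on the log2 scale outside the comparisons of genotype within a sex by name only, with a gene of the other lists named where it passed the threshold or was among the 3 largest differences with a mean of at least 1 CPM, and the genes most like Scd2, Scd1, Fasn and Srebf1 by rank. Some genes that this rule picked are not reported here. Scd3, Scd4, Adipoq, Fabp6 and Slc10a2 were named outside this rule. Alternatives were DESeq2 1.42.0, the newer quasi-likelihood method, other scalings and filters, a replicate block, the title number as a covariate, thinning of the deepest library, 1 fit of all libraries, and libraries left out.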

Additional observations from a re-analysis of the deposited data

Results flagged for a closer look

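In outlier tests of the 10 genes and 3 ratios in 4 groups (52 in all), where chance gives about 1 in 20, a single library stood far from the other 3 of its group on 2 occasions. Scd1 was 399 CPM in female WT replicate 1, against 184 to 202 CPM in the other female WT libraries, a gap of 0.882 of the group's range on the log2 scale. Without that library the female log2 fold change of Scd1 was 2.08. The Fads1 to Fads2 log2 ratio was -2.82 in male LKO replicate 4, against -2.57 to -2.54 in the other male LKO libraries, a gap of 0.908 of the range.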

How the results depend on the processing

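In males, in the interaction and between the sexes in WT, none of the 10 members passed under any of the alternatives run. In females, where 1 passed, the count was 2 with DESeq2 and with 1 fit of all 16 libraries, 0 with the title number as a covariate, with the deepest library thinned, without the libraries high in B-cell markers and without those high in adipocyte markers, and 0 to 1 with a library left out. Over both sexes, where 2 passed, it was 1 with the newer quasi-likelihood method, without a filter and with the deepest library thinned, 0 with the title number and without the libraries high in B-cell or adipocyte markers, and 0 to 2 with a library left out. Between the sexes in LKO, where none passed, it was 4 with DESeq2, 2 without a filter, 1 with upper-quartile scaling, the title number or 1 fit of all libraries, and 0 to 2 with a library left out. The cause was not tested. With the replicate number as a block the count was 2 in females, 1 over both sexes and 1 between the sexes in LKO. An alternative can also change the share of all genes that pass. Between the sexes in LKO that share was 6.86% with DESeq2, against 0.0984% with edgeR. For the other counts above 0 the share under the alternative is not given, so they are only stated. The labels do not say whether the numbers pair the mice. Deviations of same-numbered libraries correlated at -0.167 to 0.0806 between the male groups and at -0.0788 to 0.317 between the female groups. In these, 1 and 2 of 4 libraries correlated best with their own number. With 4 libraries a group, these values cannot decide whether the mice are paired.

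Among the differences printed in the report that did not pass the threshold or had no test, these turned direction. In females, without the libraries high in B-cell markers, Fasn was -0.15 and Acaca -0.19, and Acaca was -0.017 without female LKO replicate 2. Between the sexes in WT, Mir5114 was -0.064 without male WT replicate 4. In males Scd1 was -0.88 with the title number and between -0.20 and 1.03 with a library left out, Elovl6 between -0.14 and 0.017, Fasn between -0.33 and 0.065, and Thrsp 0.22 without the libraries high in adipocyte markers and between -0.70 and 0.55 with a library left out. Over both sexes Fasn was -0.23 and Thrsp -0.32 without the libraries high in B-cell markers, and Fasn lay between -0.0074 and 0.39 with a library left out. Differences under 0.1 in size outside the comparisons of genotype within a sex were not followed. Of the 10 genes closest to Scd2, 0 stayed with group means taken out and 6 each by Spearman's rank and without female LKO replicate 1. The male differences in the Scd2 share (-17.8 to -7.16 points) and in the Fads1 to Fads2 ratio (-0.24 to -0.065) kept their sign under every alternative and did not pass. Counts of 35 to 240 a library limit Mir5114.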
